A study of Homo sapiens with 12 samples.

Results

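Vitamin D and aryl hydrocarbon receptor signalling was followed through 10 genes in RNA sequencing counts of ovarian cancer cells. The members were taken as the rows whose gene symbol matched a list of 10, namely CYP27B1, VDR, RXRA, CYP24A1, AHR, ARNT, AHRR, CYP1A1, CYP1B1 and TIPARP, of 47219 loci counted. The members were chosen by the CYP24A1 counts of SKOV3/DDP cells, which were much lower with paeonol (PAE), so the members' values in that comparison are given below as a description with no test. Counts were high enough to test in 17133 genes, which included 9 of the 10 members and left out AHRR.

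SKOV3 is a human epithelial ovarian cancer line labelled as sensitive to cisplatin, and SKOV3/DDP is the resistant line developed from it. PAE is a small phenolic compound known from peony root bark. The 4 groups were untreated SKOV3, SKOV3 with PAE, untreated SKOV3/DDP and SKOV3/DDP with PAE, with 3 libraries of polyadenylated RNA in each. The labels and methods used here state no dose or duration of PAE for these libraries and no vehicle for the controls, and a code in the names of the deposited tables was not read as a dose. Each resistant and each parental group stands for 1 cell line, so a difference between the lines is a difference between those cultures. The libraries are described as triplicates, and nothing further says how separate the cultures were, so p-values measure the spread between these libraries only.

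Vitamin D is activated in the cell by the hydroxylase CYP27B1, and the active hormone binds the receptor VDR, which sits on DNA with its partner RXRA. The best known target of that pair is CYP24A1, the enzyme that breaks the hormone down again. The aryl hydrocarbon receptor AHR waits in the cytosol with chaperones until a planar aromatic ligand binds, then pairs with ARNT in the nucleus and turns on the oxidising enzymes CYP1A1 and CYP1B1 and the repressors AHRR and TIPARP, which restrain the receptor in turn.

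Libraries held 14610008 to 18263479 counts. The untreated SKOV3 libraries stood apart from the rest. Across 15090 tested genes with a known GC content, the Spearman correlation of a library's deviation from the mean of all libraries with GC content was 0.695 to 0.711 in those 3 libraries and -0.581 to -0.352 in the other 9. They held counts for 17951 to 18240 genes against 21469 to 23194 elsewhere. Member values in comparisons with untreated SKOV3, and counts of calls in the other lists, are therefore given also after a trend on GC content and gene length had been removed from each library, and whatever set these libraries apart and the untreated state of SKOV3 cannot be told apart. The median log2 fold change over all tested genes was 0.48 for PAE in SKOV3, 0.54 between the untreated lines, 0.06 between the lines with PAE and 0 for PAE in SKOV3/DDP, and scaling by library size alone moved the first of these to 1.36 and the second to 1.23. Of the markers examined, all 5 epithelial genes had counts in every group, with a summed level of 723 to 1320 CPM, counts scaled to library size, in SKOV3 with PAE as the lowest group and 10400 to 12400 CPM in untreated SKOV3/DDP as the highest. These genes did not move together. In untreated SKOV3 and untreated SKOV3/DDP, KRT8 had 3310 and 5280 CPM, KRT18 1500 and 4190, KRT19 7.66 and 1350, and EPCAM 1.26 and 289. ERBB2 went the other way, at 306 and 96.5 CPM. EPCAM rested on 44 counts in untreated SKOV3. The 3 ovarian or Mullerian genes summed to 25.7 to 35.3 CPM in untreated SKOV3, 15.2 to 27.5 CPM in SKOV3 with PAE, 3.58 to 6.12 CPM in untreated SKOV3/DDP and 1.82 to 4.32 CPM in SKOV3/DDP with PAE, and WT1 was at 0 in untreated SKOV3. The 9 markers of other cell types summed to between 28.9 and 111 CPM in the 12 libraries, with the red cell gene HBB at 0 in all of them. The leukocyte marker CD68 had the highest mean of these in every group, at 52.4 CPM in untreated SKOV3, 24.1 CPM with PAE, 97.1 CPM in untreated SKOV3/DDP and 51.8 CPM with PAE. COL1A1 reached 12.1 CPM in untreated SKOV3, and PECAM1 and DCN reached 7.66 and 3.05 CPM in SKOV3 with PAE. The part of these shifts in the results was not tested.

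CYP24A1 was at the edge of detection in untreated SKOV3, was higher with PAE there, was most abundant in untreated SKOV3/DDP and was low again in SKOV3/DDP with PAE. In the aryl hydrocarbon arm, AHR, ARNT, CYP1B1 and TIPARP rose with PAE in SKOV3, of which AHR was no longer called once a trend on GC content was removed. CYP1A1 was not called for PAE in SKOV3 as counted, but was with that trend removed or with scaling by library size alone. It was lower with PAE in SKOV3/DDP. With PAE, CYP1B1 separated the lines most of all members, at 498 ± 101 CPM (SD, n = 3) in SKOV3 with PAE and 0.394 ± 0.257 CPM in SKOV3/DDP with PAE. Levels in CPM were scaled with TMM factors, which balance the composition of the libraries. In bulk RNA, fewer cells that express a gene and less of its RNA per cell cannot be told apart.

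**Figure D1:**
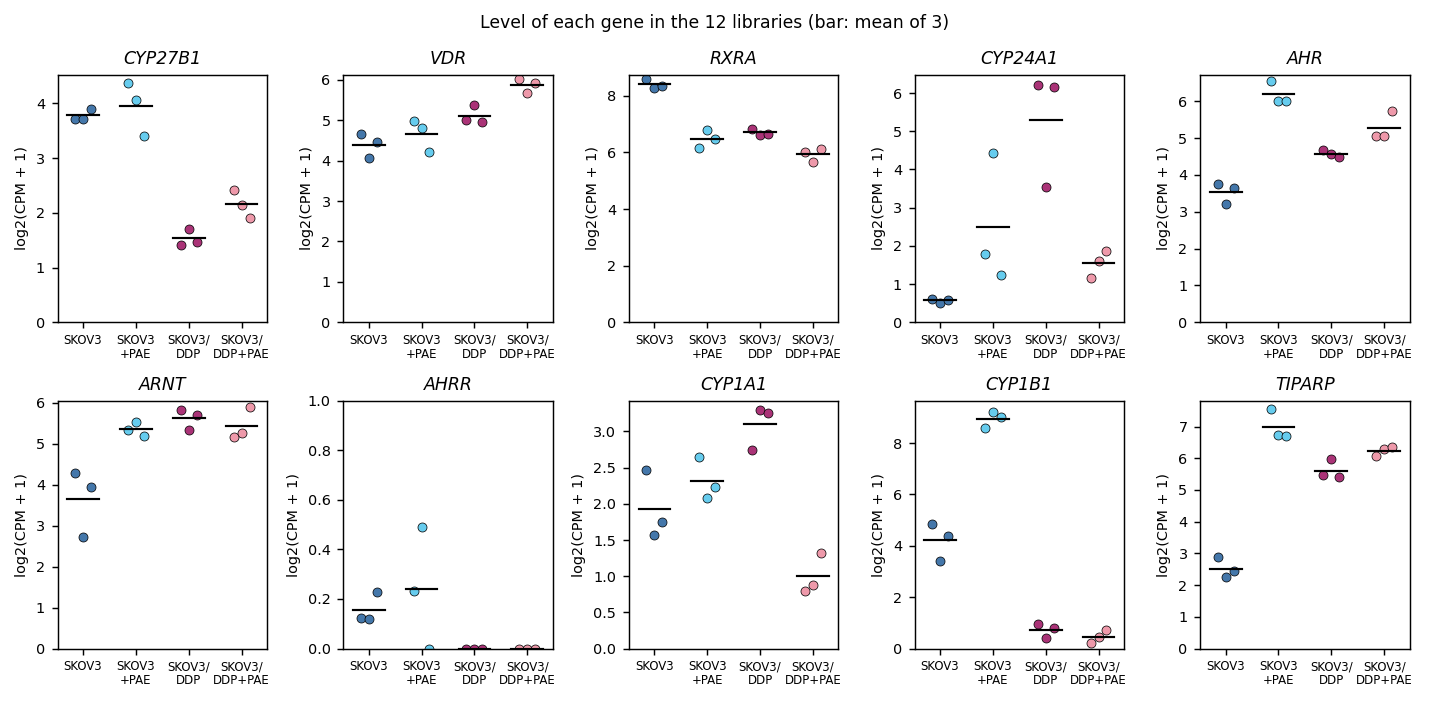
Level of each of the 10 genes in the 12 libraries, as log2(CPM + 1) on the vertical axis, with 1 point per library and a bar at the mean of the 3 log values of each group on the horizontal axis. CYP24A1 reached 72.5 CPM in untreated SKOV3/DDP and stayed between 0.426 and 0.532 CPM in untreated SKOV3, while CYP1B1 lay between 387 and 585 CPM in SKOV3 with PAE and below 1 CPM in all SKOV3/DDP libraries.

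CYP27B1 (GRCh38 chr12:57762334-57767078, minus strand), which makes the active hormone, separated the lines. Its level was 12.2, 12.2 and 13.9 CPM in untreated SKOV3, 19.8, 15.6 and 9.58 CPM in SKOV3 with PAE, 1.67, 2.27 and 1.78 CPM in untreated SKOV3/DDP, and 4.37, 3.43 and 2.75 CPM in SKOV3/DDP with PAE. All 6 SKOV3 libraries lay above all 6 SKOV3/DDP libraries, and within SKOV3 the treated libraries spanned the untreated ones. Between the untreated lines CYP27B1 was lower in SKOV3/DDP by a log2 fold change of -2.74 ± 0.33 (SE), with an adjusted p of 1.85e-06 in edgeR's quasi-likelihood fit, adjusted after Benjamini and Hochberg over all genes. The corresponding change between the lines with PAE was -2.09 ± 0.32 (edgeR adjusted p = 5.55e-05). The effect of PAE in SKOV3 was 0.23 ± 0.30 with a 95% interval of -0.409 to 0.873 (edgeR adjusted p = 0.496). Removing the GC trend took that estimate to 2.19 (edgeR adjusted p = 3.79e-05) and the difference between the untreated lines to -0.78 (edgeR adjusted p = 0.0298). PAE in SKOV3/DDP gave a log2 fold change of 0.88 ± 0.33, and the treated and untreated libraries did not overlap.

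VDR (chr12:47841537-47905022, minus strand), the hormone's receptor, was highest in SKOV3/DDP with PAE. It measured 24.1, 15.6 and 20.9 CPM in untreated SKOV3, 30.6, 26.9 and 17.5 CPM in SKOV3 with PAE, 31.2, 40.3 and 30.0 CPM in untreated SKOV3/DDP, and 64.4, 50 and 59.5 CPM in SKOV3/DDP with PAE. The last group stood above every other library, while the other 3 groups overlapped their neighbours in the order of means. With PAE in both lines, VDR was higher in SKOV3/DDP by 1.21 ± 0.25 on the log2 scale (edgeR adjusted p = 0.000768). The untreated lines differed by 0.74 ± 0.25 (edgeR adjusted p = 0.0124), a call that was lost without the second untreated SKOV3 library (edgeR adjusted p = 0.0514) or the second untreated SKOV3/DDP library (edgeR adjusted p = 0.0523), and that was 1.70 with the GC trend removed. PAE in SKOV3 gave 0.31 ± 0.25, with an interval of -0.222 to 0.835 (edgeR adjusted p = 0.274), and 1.31 after the GC trend was removed (edgeR adjusted p = 0.00035). The log2 fold change with PAE in SKOV3/DDP was 0.78 ± 0.25.

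RXRA (chr9:134326455-134440585, plus strand), the DNA-binding partner of VDR and of several other nuclear receptors, was the member with the most counts in untreated SKOV3. Its levels were 389, 310 and 322 CPM in untreated SKOV3, 70.3, 109 and 89.0 CPM in SKOV3 with PAE, 114, 98.0 and 100 CPM in untreated SKOV3/DDP, and 63.3, 49.5 and 68.9 CPM in SKOV3/DDP with PAE. Untreated SKOV3 was far above all other libraries and SKOV3/DDP with PAE was below all others. RXRA fell with PAE in SKOV3 by 1.93 on the log2 scale (SE 0.22, edgeR adjusted p = 1.04e-06) and was lower in SKOV3/DDP than in SKOV3 without PAE, at -1.71 ± 0.22 (edgeR adjusted p = 3.08e-06). RXRA has a GC content of 60.6%, and with the GC trend removed these values became 0.04 (edgeR adjusted p = 0.873) and -0.01 (edgeR adjusted p = 0.96), so neither call was kept. Between the lines with PAE the difference was -0.56 ± 0.21 (edgeR adjusted p = 0.0348), which was lost with replicate number as a block (-0.57, edgeR adjusted p = 0.0539) and without the second or the third treated SKOV3 library or the first or second treated SKOV3/DDP library (edgeR adjusted p = 0.0591 to 0.137). In SKOV3/DDP the log2 fold change with PAE was -0.78 ± 0.21, and the groups did not overlap.

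CYP24A1 (chr20:54145731-54174032, minus strand), the hormone-degrading enzyme and the target by which the list was chosen, varied widely between replicates. It had 6, 5 and 6 counts in untreated SKOV3, or 0.532, 0.426 and 0.509 CPM. In SKOV3 with PAE the libraries held 2.44, 20.5 and 1.37 CPM, from 42, 403 and 26 counts. Untreated SKOV3/DDP held 72.5, 10.6 and 70.6 CPM, from 1257, 168 and 1153 counts, and SKOV3/DDP with PAE held 1.23, 2.02 and 2.64 CPM, from 25, 43 and 48 counts. Thus 1 of 3 libraries in each of the 2 groups with higher means was far from the others, the second treated SKOV3 library being high and the second untreated SKOV3/DDP library low. In the order of group means, untreated SKOV3/DDP (51.2 ± 35.2 CPM) overlapped SKOV3 with PAE (8.09 ± 10.7 CPM), that group overlapped SKOV3/DDP with PAE (1.96 ± 0.709 CPM), and only untreated SKOV3 (0.489 ± 0.056 CPM) lay clear of its neighbour.

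CYP24A1 rose with PAE in SKOV3 by a log2 fold change of 4.03 ± 1.03 (edgeR adjusted p = 0.00229), and all 3 treated libraries were above all 3 untreated ones. Without the second treated library the estimate was 1.95 (edgeR adjusted p = 0.0382), and with the GC trend removed it was 3.06 (edgeR adjusted p = 0.0292). In SKOV3/DDP, the comparison that chose the list, the log2 fold change was -4.71 ± 0.90, the 27th most negative of all genes tested, and 0.315% of genes had a larger change in either direction. The untreated lines differed by 6.69 ± 1.07, or 5.71 with the trend removed, and the lines with PAE by -2.05 ± 0.83. The latter was 0.03 without the second treated SKOV3 library. Untreated SKOV3 serves in both comparisons that involve it, as does each other group, so these estimates are not independent of each other.

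The genes whose levels were most like CYP24A1 over the 12 libraries were TXNRD3, TMTC4, INPP4B, ALDH1B1 and TRERF1, with Pearson correlations of log2(CPM + 1) of 0.938, 0.932, 0.907, 0.90 and 0.898 among 12719 genes that reached a mean of 5 CPM in at least 1 group. The points share 4 groups of libraries and the correlations describe these libraries only. TMTC4, for instance, had a group mean of 4.81 CPM in untreated SKOV3, 7.64 CPM in SKOV3 with PAE, 32.8 CPM in untreated SKOV3/DDP and 5.92 CPM in SKOV3/DDP with PAE. INPP4B, a phosphoinositide phosphatase, followed the same order at 0.316, 3.18, 9.98 and 1.71 CPM.

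AHR (chr7:17298652-17346147, plus strand), the ligand-binding receptor of the other arm, was highest in SKOV3 with PAE. Its levels were 12.4, 8.27 and 11.5 CPM in untreated SKOV3, 93.2, 63.2 and 63.7 CPM in SKOV3 with PAE, 24.5, 22.5 and 21.5 CPM in untreated SKOV3/DDP, and 32.2, 32.4 and 52.3 CPM in SKOV3/DDP with PAE. No 2 groups overlapped. AHR rose with PAE in SKOV3 by 2.77 ± 0.27 on the log2 scale (edgeR adjusted p = 1.96e-07) and was higher in SKOV3/DDP than in SKOV3 without PAE by 1.09 ± 0.26 (edgeR adjusted p = 0.00111). AHR has the lowest GC content of the members, at 38.2%, and removing the GC trend left a change of 0.31 with PAE (edgeR adjusted p = 0.207) and turned the difference between the untreated lines to -1.21 (edgeR adjusted p = 0.000122). AHR was lower in SKOV3/DDP, at -0.91 ± 0.25 when both lines had PAE (edgeR adjusted p = 0.0059). In SKOV3/DDP the log2 fold change with PAE was 0.77 ± 0.25.

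ARNT (chr1:150809713-150876737, minus strand), the nuclear partner that AHR needs to bind DNA, was low only in untreated SKOV3. It measured 18.5, 5.62 and 14.4 CPM there, 39.1, 45.6 and 35.5 CPM in SKOV3 with PAE, 55.5, 39.6 and 51.2 CPM in untreated SKOV3/DDP, and 35.0, 37.3 and 58.3 CPM in SKOV3/DDP with PAE. The last 3 groups overlapped each other. ARNT rose with PAE in SKOV3 by 1.64 ± 0.35 (edgeR adjusted p = 0.000491), or 0.87 with the GC trend removed (edgeR adjusted p = 0.0249), and was higher in SKOV3/DDP than in SKOV3 without PAE by 1.92 ± 0.35 (edgeR adjusted p = 0.000111), or 1.16 with the trend removed. The lines with PAE differed by 0.12 ± 0.33, with an interval of -0.586 to 0.823 (edgeR adjusted p = 0.782), and the log2 fold change with PAE in SKOV3/DDP was -0.16 ± 0.33.

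AHRR (chr5:321714-438285, plus strand), a repressor that competes with AHR for ARNT, was barely detected. Its counts were 1, 1 and 2 in untreated SKOV3, 3, 8 and 0 in SKOV3 with PAE, and 0 in all 6 SKOV3/DDP libraries. Pooled over each group, 11 counts against 4 gave a ratio of 1.71 for SKOV3 with PAE over untreated SKOV3, with an exact 95% interval of 0.507 to 7.37 that covers counting error only. The pooled level in SKOV3 with PAE was 3.92 times a floor of 3 counts over SKOV3/DDP with PAE. This ratio leaves out the error of the 11 counts, of which 8 came from 1 library. The exact 95% intervals were 0.0982 to 0.352 CPM in SKOV3 with PAE and 0 to 0.0616 CPM in SKOV3/DDP with PAE. The gene shares its locus with the readthrough gene PDCD6-AHRR, which had 4 counts in all, so even these few reads could be split between both.

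The AHR and ARNT pair binds DNA at a core of the letters GCGTG, and the upstream sequences of CYP1A1 and TIPARP are shown because both targets hold this core and CYP1A1, unlike TIPARP, was not called for PAE in SKOV3 as counted, although it was with the GC trend removed (1.66) and with library size scaling (1.34). RefSeq promoter sequence (GRCh38.p14) was found for 6 of the 10 members. It was not found for CYP27B1, VDR, CYP24A1 and CYP1B1. In the 250 bases before the transcription start, read 5′ to 3′ on the gene's own strand, capitals mark GCGTG or, where the core is on the other strand, CACGC.
CYP1A1, chr15:74725529-74725778, minus strand: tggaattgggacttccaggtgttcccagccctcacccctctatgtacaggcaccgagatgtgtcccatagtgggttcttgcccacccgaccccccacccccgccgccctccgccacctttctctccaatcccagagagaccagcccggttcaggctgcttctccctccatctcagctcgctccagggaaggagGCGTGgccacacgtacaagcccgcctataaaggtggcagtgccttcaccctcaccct
TIPARP, chr3:156674340-156674589, plus strand: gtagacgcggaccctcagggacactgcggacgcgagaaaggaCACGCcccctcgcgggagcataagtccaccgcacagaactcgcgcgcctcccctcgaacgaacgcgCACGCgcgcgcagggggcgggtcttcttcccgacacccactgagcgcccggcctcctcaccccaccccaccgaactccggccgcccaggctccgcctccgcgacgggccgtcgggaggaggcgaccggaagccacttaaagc
CYP1A1 held 1 core, beginning 57 bases before its start. TIPARP held 2 on the other strand, with first letters 208 and 142 bases before the start of its first listed transcript, and none in the windows of its other 2 listed starts. AHRR held 1 core before its first start and 2 before its second, and AHR, ARNT and RXRA held none. At least 1 core stood in 32.2% of 35116 RefSeq windows of this length, and 2 or more in 10.2%. A match to 5 letters is a description of the window and not a measured binding site. Bases further upstream were not searched, so the number of cores is that of the window and not of the gene. Whether cores bear on the levels was not tested.

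CYP1A1 (chr15:74719542-74725528, minus strand), a classical AHR target that oxidises aromatic compounds, was scarce in every group. Its levels were 4.52, 1.96 and 2.37 CPM in untreated SKOV3, 5.29, 3.25 and 3.68 CPM in SKOV3 with PAE, 5.71, 8.84 and 8.51 CPM in untreated SKOV3/DDP, and 0.74, 0.85 and 1.49 CPM in SKOV3/DDP with PAE. The untreated SKOV3/DDP libraries were the highest and the treated ones the lowest, with no overlap with any other group. PAE in SKOV3 gave a log2 fold change of 0.46 ± 0.40, with an interval of -0.396 to 1.32 (edgeR adjusted p = 0.308), and 1.66 after the GC trend was removed (edgeR adjusted p = 0.00465). CYP1A1 was higher in SKOV3/DDP than in SKOV3 without PAE by 1.38 ± 0.40 (edgeR adjusted p = 0.00544), or 2.64 with the trend removed, and lower, at -1.99 ± 0.42 when both lines had PAE (edgeR adjusted p = 0.00103). Within SKOV3/DDP it was lower with PAE, at -2.91 ± 0.43 on the log2 scale.

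CYP1B1 (chr2:38067509-38076151, minus strand), the second oxidising enzyme, was near the limit of detection in SKOV3/DDP. Its levels were 28.1, 9.54 and 19.6 CPM in untreated SKOV3, 387, 585 and 523 CPM in SKOV3 with PAE, 0.92, 0.32 and 0.73 CPM in untreated SKOV3/DDP, and 0.15, 0.38 and 0.66 CPM in SKOV3/DDP with PAE. The 2 SKOV3 groups stood apart from each other and from all SKOV3/DDP libraries, which overlapped. CYP1B1 rose with PAE in SKOV3 by 4.71 ± 0.42 on the log2 scale (edgeR adjusted p = 9.64e-08), or 3.21 with the GC trend removed. It was lower in SKOV3/DDP, at -4.83 ± 0.48 between the untreated lines (edgeR adjusted p = 2.01e-07), or -6.28 with the trend removed, and at -10.30 ± 0.57 between the lines with PAE (edgeR adjusted p = 2.53e-09). Within SKOV3/DDP the PAE value was -0.76 ± 0.59, from 33 and 23 counts in the whole groups. RMDN2 overlaps CYP1B1 on the opposite strand and reached a group mean of 9.59 CPM, and whether counting used the strand was not given in the sources used here, so the lowest CYP1B1 levels could include its reads.

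TIPARP (chr3:156674590-156706770, plus strand), an ADP-ribosyltransferase that AHR induces and that restrains AHR, had its lowest level in untreated SKOV3. Its levels were 6.39, 3.75 and 4.41 CPM there, 186, 105 and 104 CPM in SKOV3 with PAE, 43.0, 61.4 and 41.3 CPM in untreated SKOV3/DDP, and 65.6, 77.7 and 81.6 CPM in SKOV3/DDP with PAE. No 2 groups overlapped, as with AHR. TIPARP rose with PAE in SKOV3 by 4.76 ± 0.32 (edgeR adjusted p = 1.41e-08), or 3.02 with the GC trend removed, and was higher in SKOV3/DDP than in SKOV3 without PAE by 3.32 ± 0.30 (edgeR adjusted p = 8.86e-08), or 1.71 with the trend removed. Between the lines with PAE it was lower in SKOV3/DDP, at -0.81 ± 0.27 (edgeR adjusted p = 0.0185), a call lost without the first treated SKOV3 library (edgeR adjusted p = 0.122) or the first treated SKOV3/DDP library (edgeR adjusted p = 0.0701). In SKOV3/DDP the log2 fold change with PAE was 0.63 ± 0.27.

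Levels of different genes were compared per kilobase of the deposited gene length. In untreated SKOV3, RXRA was the most abundant member at 46.4 CPM per kilobase, ahead of CYP27B1 at 5.39 and VDR at 3.92. In SKOV3 with PAE, CYP1B1 led at 95.5 CPM per kilobase, followed by TIPARP at 30.2 and RXRA at 12.2. In untreated SKOV3/DDP the leading members were RXRA at 14.2, CYP24A1 at 12.1 and TIPARP at 11.1 CPM per kilobase, and in SKOV3/DDP with PAE they were TIPARP at 17.2, VDR at 11.2 and ARNT at 8.71. By group means, CYP24A1 thus stood near RXRA in untreated SKOV3/DDP and at 0.464 CPM per kilobase in the same line with PAE. Its untreated SKOV3/DDP libraries held 72.5, 10.6 and 70.6 CPM, and this fall is the one that chose the list.

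**Figure D2:**
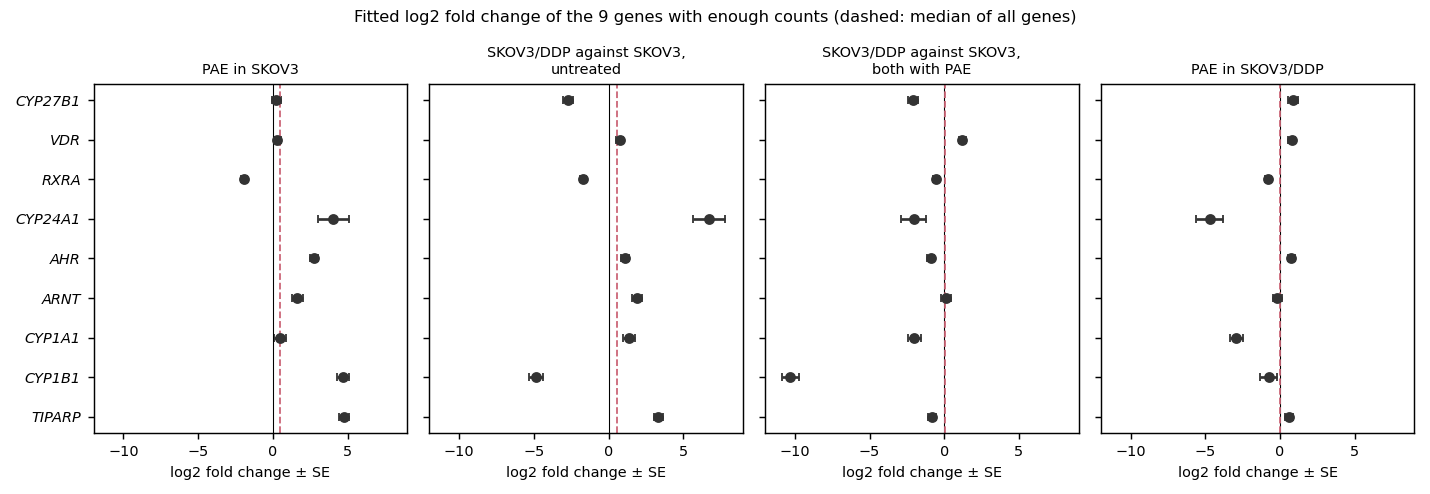
Fitted log2 fold change (horizontal axis) with its SE of the 9 members tested, in 4 comparisons, where positive values are higher with PAE or in SKOV3/DDP and the dashed line is the median of all genes. CYP24A1 lay at 4.03 for PAE in SKOV3 and at -4.71 for PAE in SKOV3/DDP, and CYP1B1 reached -10.30 between the lines with PAE.

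The members' calls were set beside those of all genes. For PAE in SKOV3, 6 of 9 members passed an adjusted p of 0.05, where 75.3% of all tested genes did. The 5 that rose, beside 42.6% of genes, were CYP24A1, AHR, ARNT, CYP1B1 and TIPARP (AHR not with the GC trend removed), and RXRA fell (0.04 with the GC trend removed), beside 32.7% of genes. The libraries of both groups did not overlap in 6 members, against 77.4% of genes, and the median log2 fold change of the 9 was 1.64.

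CYP24A1 was left out of the counts between the lines, since its SKOV3/DDP counts chose the list. Between the untreated lines the other 8 all passed, against 81.8% of genes. VDR, AHR, ARNT, CYP1A1 and TIPARP were higher in SKOV3/DDP, beside 45.8% of genes, although AHR was lower with the GC trend removed. CYP27B1, RXRA and CYP1B1 were lower, beside 36.0% of genes, of which RXRA was not called with the trend removed. All 8 were free of overlap, against 83.2% of genes, and their median was 0.92. With PAE in both lines, a comparison that uses no untreated SKOV3 library, 7 of 8 passed against 54.5% of genes. VDR alone was higher in SKOV3/DDP, beside 27.5% of genes, and 6 were lower, beside 27.1%. Groups did not overlap in 7 members, against 61.2% of genes, and the median was -0.86.

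In the comparison on which the list was chosen, PAE in SKOV3/DDP, 5 of 9 members had an adjusted p under 0.05 where 26.4% of genes did, which is no test of the members. VDR and AHR were higher, beside 11.8% of genes, and RXRA, CYP24A1 and CYP1A1 were lower, beside 14.7%. Groups did not overlap in 7 members, against 45.1% of genes. Nothing is read from these counts.

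**Figure D3:**
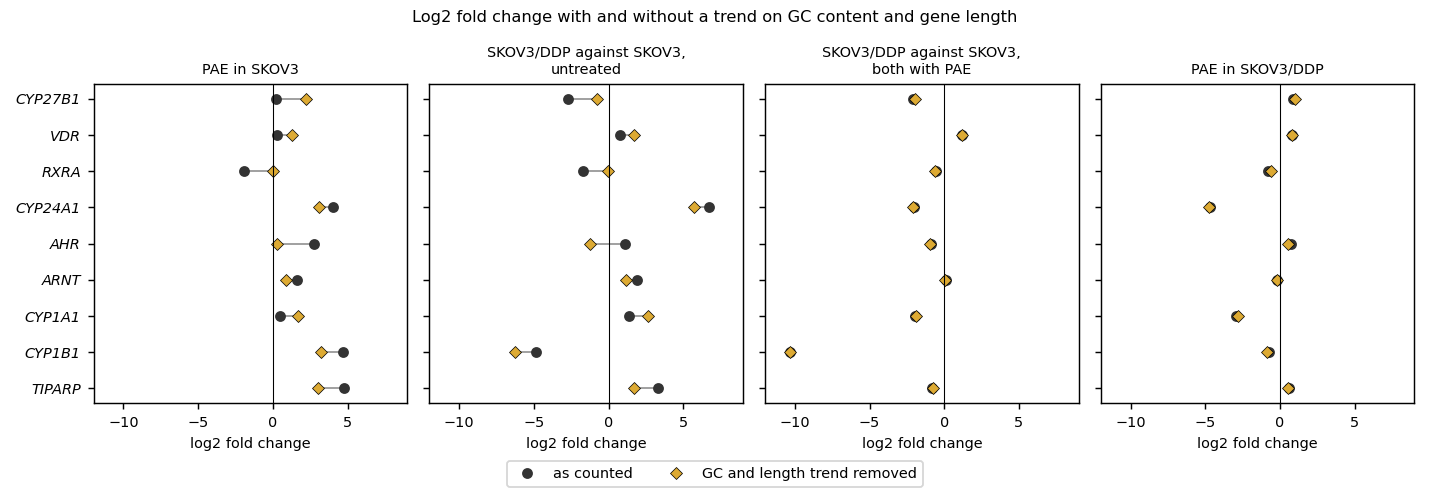
Log2 fold change (horizontal axis) of the 9 members as counted (circles) and after a trend on GC content and gene length was removed from each library (diamonds), in the 4 comparisons. RXRA moved from -1.93 to 0.04 and AHR from 2.77 to 0.31 for PAE in SKOV3, while both symbols lay close together where no untreated SKOV3 library took part.

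The surrounding pathway was read from 50 further genes in 5 lists, of which 35 had enough counts to test. PAE in SKOV3 called 29 of the 35, with 19 higher and 10 lower, and the untreated lines differed in 31, with 17 higher and 14 lower in SKOV3/DDP. With PAE in both lines 18 differed, 5 higher and 13 lower in SKOV3/DDP. PAE in SKOV3/DDP, where these genes other than the members were tested, called 13, of which 3 rose and 10 fell. As shares these were 82.9%, 88.6%, 51.4% and 37.1%, beside 75.3%, 81.8%, 54.5% and 26.4% of all genes.

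Of 6 genes that supply vitamin D or carry it into cells, 3 were tested. CYP2R1, which makes the circulating form, rose with PAE in SKOV3 from 6.06 ± 0.516 to 20.3 ± 4.41 CPM (log2 fold change 1.74, edgeR adjusted p = 6.46e-05), and DHCR7, which draws the precursor away into cholesterol, fell from 119 ± 5.29 to 28.4 ± 7.67 CPM (-2.07, edgeR adjusted p = 8.03e-07). With the GC trend removed both changed sign, to -0.70 and 0.08, and neither was called. CUBN, a receptor for the carrier of the vitamin, had 0 counts in untreated SKOV3. Its scaled level in untreated SKOV3/DDP, from 47 counts, was 11 times a floor of 3 counts over untreated SKOV3. The untreated lines differed in all 3 genes as counted, beside 81.8% of all genes. With the GC trend removed, CYP2R1 went from 1.81 to -0.54 (edgeR adjusted p = 0.133) and DHCR7 from -0.99 to 1.10 (edgeR adjusted p = 0.000167), and DHCR7 was not called with library size scaling (edgeR adjusted p = 0.2). The lines with PAE differed in CUBN alone and PAE in SKOV3/DDP called DHCR7 alone, where 54.5% and 26.4% of all genes were called. DHCR7 fell with PAE in SKOV3/DDP by 0.74 on the log2 scale (edgeR adjusted p = 0.023), a call lost without the first or second library of either group (edgeR adjusted p = 0.0546 to 0.12).

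Receptor partners and coregulators had 9 of 10 genes tested. For PAE in SKOV3 all 9 were called, 7 higher and 2 lower, beside 75.3% of all genes, and the coactivator NCOA2 rose by 3.46 ± 0.35 on the log2 scale while RXRB, a sister of RXRA, fell by 3.27 (SE 0.46), values that were 1.48 and -1.78 with the GC trend removed. Between the untreated lines 7 were higher and 2 lower in SKOV3/DDP, beside 81.8% of genes called, with MED1, a subunit of the mediator complex, higher by 2.98 ± 0.43, or 1.76 with the trend removed. With the trend removed, 8 and 7 of the 9 were called in these comparisons, with 1 lower in each. When both lines had PAE 1 of 9 was called, beside 54.5% of genes, the acetyltransferase CREBBP at 1.38 ± 0.32 (edgeR adjusted p = 0.00195). PAE in SKOV3/DDP called 2, beside 26.4% of genes, with CREBBP at 1.16 ± 0.32 (edgeR adjusted p = 0.015) and NCOA1 at 1.13 ± 0.32 (edgeR adjusted p = 0.0168). The call of CREBBP was lost without the third untreated or the third treated library (edgeR adjusted p = 0.0613 and 0.0676), and that of NCOA1 without the first untreated, the third untreated or the third treated library (edgeR adjusted p = 0.0554 to 0.062).

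Of 16 other VDR targets listed, 8 were tested. Between the untreated lines 6 were lower and 1 higher in SKOV3/DDP, beside 36.0% and 45.8% of all genes, and with the GC trend removed 4 were called, all lower. THBD, the thrombin receptor thrombomodulin, had 0 counts in both SKOV3/DDP groups. Its level in SKOV3 was 129 times a floor of 3 counts over SKOV3/DDP without PAE, and 361 times that floor with it. IGFBP3, which binds insulin-like growth factors, had 33.9 ± 4.26 CPM in untreated SKOV3 and 214 ± 39.8 CPM with PAE, a log2 rise of 2.66 (edgeR adjusted p = 7.88e-08) that was 2.87 with the GC trend removed. In SKOV3/DDP it fell with PAE by 1.21 on the log2 scale, from a mean of 1.71 to 0.729 CPM (edgeR adjusted p = 0.00802). CD14, a co-receptor for bacterial lipids, was lower in SKOV3/DDP, at -4.65 ± 0.27 untreated (-2.10 with the GC trend removed) and -4.24 ± 0.27 with PAE. For PAE in SKOV3, 4 rose and 3 fell, beside 42.6% and 32.7% of genes, and with the GC trend removed 4 were called, all higher. CD14 turned from -1.07 (edgeR adjusted p = 6e-04) to 1.49 (edgeR adjusted p = 7.29e-05), and LRP5 at -2.42 and NINJ1 at -2.93 lost their calls. When both lines had PAE 5 of 8 were called, all lower in SKOV3/DDP, beside 27.1% of genes. PAE in SKOV3/DDP called 2, both lower, beside 14.7% of genes.

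The cytosolic complex that holds AHR gave 4 of 5 genes called for PAE in SKOV3, beside 75.3% of all genes, and 3 with the GC trend removed. HSP90AA1, the chaperone itself, rose from 157 ± 11 to 1910 ± 1370 CPM (3.60 ± 0.53, edgeR adjusted p = 1.54e-05), or 2.41 on the log2 scale with the GC trend removed. Its treated libraries ranged from 1120 to 3490 CPM, and leaving out a library took the log2 fold change as low as 2.84. The untreated lines differed in all 5, with 3 higher and 2 lower in SKOV3/DDP, beside 81.8% of genes called. With the GC trend removed they differed in 4, and PTGES3, a co-chaperone, went from 2.09 to 0.43 (edgeR adjusted p = 0.148). When both lines had PAE 2 of the 5 were called, both lower in SKOV3/DDP, beside 27.1% of genes. ARNT2, a second partner for AHR, had a mean of 27.1 CPM in SKOV3 with PAE and 0.167 CPM in SKOV3/DDP with PAE (-7.28 ± 0.51, edgeR adjusted p = 2.22e-08). With PAE in SKOV3/DDP 2 were called, both lower, beside 14.7% of genes. ARNT2 changed by -1.94 ± 0.56 (edgeR adjusted p = 0.0204), a call lost without the first untreated or any 1 treated library (edgeR adjusted p = 0.0524 to 0.0885).

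Of 13 further AHR targets, 10 were tested. Between the lines with PAE 9 were called, 6 lower and 3 higher in SKOV3/DDP, beside 27.1% and 27.5% of all genes. Between the untreated lines 7 were called, 3 lower and 4 higher (4 and 5 with the GC trend removed), beside 81.8% of genes. EREG, the growth factor epiregulin, rose with PAE in SKOV3 from 10.6 to 421 CPM (5.31 ± 0.52, edgeR adjusted p = 2.26e-07), or 2.92 with the GC trend removed, and was at 0.563 CPM in SKOV3/DDP with PAE, a difference of -9.52 ± 0.65 between the treated lines. STC2, a secreted glycoprotein, had 8741 counts in untreated SKOV3 and 1 in untreated SKOV3/DDP, a ratio of scaled levels of 12400 (interval 2230 to 491000 from counting error). CYP2S1, another oxidising enzyme, went the other way and was higher in SKOV3/DDP by 4.98 ± 0.30 when both had PAE (edgeR adjusted p = 4.57e-09). With PAE in SKOV3, 4 rose and 3 fell, beside 42.6% and 32.7% of genes, or 6 and 2 with the trend removed. The efflux transporter ABCG2 rose from 0.234 to 2.88 CPM (3.60 ± 0.61, edgeR adjusted p = 6.74e-05), or 1.52 with the GC trend removed (edgeR adjusted p = 0.0462). Its level in untreated SKOV3 rested on 8 counts. Of the 3 that fell, CYP2S1 fell most, from 42.3 to 3.22 CPM (-3.71 ± 0.28, edgeR adjusted p = 2.43e-08). Its value was -1.20 with the trend removed (edgeR adjusted p = 0.000821). ALDH3A1 turned from -0.79 to 1.32 with the trend removed (edgeR adjusted p = 0.0027) and SLC7A5 from -1.43 to 0.76 (edgeR adjusted p = 0.213), both named here after their values were seen. With PAE in SKOV3/DDP, 5 fell and 1 rose, beside 14.7% and 11.8% of genes. ALDH3A1, an aldehyde dehydrogenase, fell from 15.0 to 3.86 CPM (-1.95 ± 0.32, edgeR adjusted p = 0.00076). ABCG2, which rose in SKOV3, fell here from 21.1 to 6.59 CPM (-1.68 ± 0.43, edgeR adjusted p = 0.0105). UGT1A1 and UGT1A6 share exons, so their counts are uncertain.

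**Figure D4:**
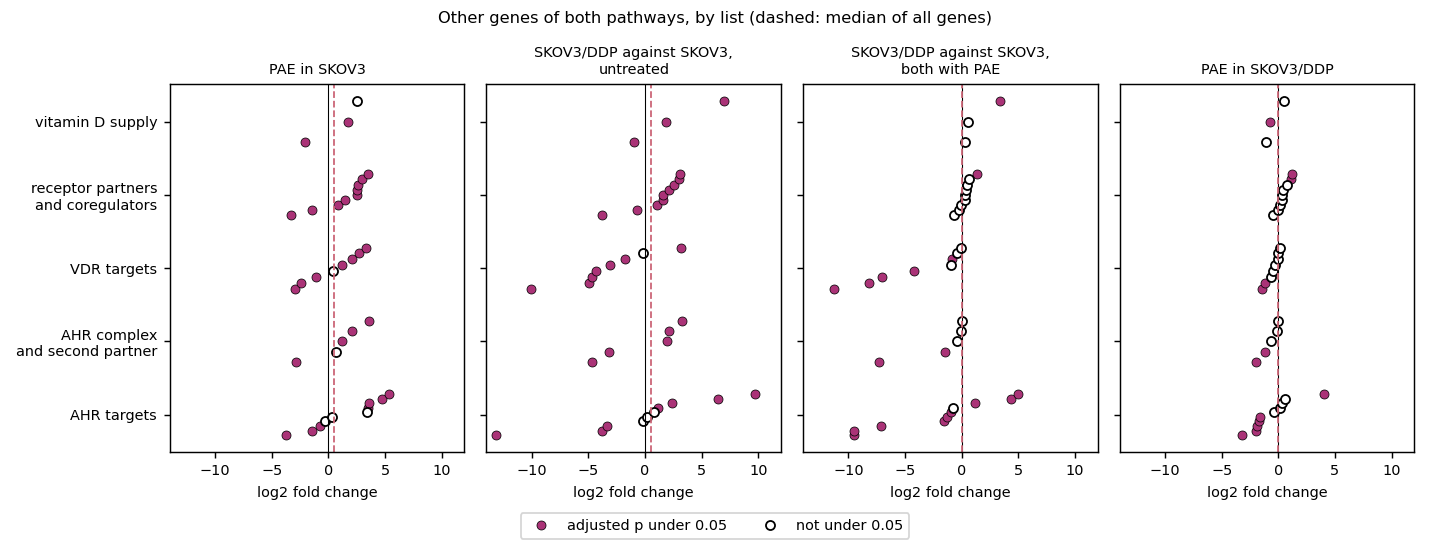
Log2 fold change (horizontal axis) of the 35 tested pathway genes that are not members, by list, in the 4 comparisons, with filled points for an adjusted p under 0.05, open points for the others and a dashed line at the median of all genes. Of the 35 points, 29, 31, 18 and 13 are filled from left to right.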

How the data were processed

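Total RNA was extracted with Trizol and polyadenylated RNA was sequenced by the authors in 12 libraries. They deposited 1 table per library with whole-number counts per gene, not normalized, for 46350 named genes and 869 unnamed loci, which held 0.126 to 0.678% of counts and were left out, and with gene coordinates on GRCh38 and an exonic gene length. The submitters' processing notes name HISAT2 2.0.5, StringTie 1.3.3b, DESeq2 and edgeR. Which program counted, on which annotation and with which strand, was not given in the sources used here. Reads from overlapping genes may therefore be shared, and intervals and floors cover counting error only.

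Genes passing edgeR's expression filter were fitted once over all 12 libraries with 4 groups (edgeR 4.0.16 in R 4.3.3, TMM factors, quasi-likelihood test). Adjusted p-values are Benjamini-Hochberg over all 17133 genes, called under 0.05, and the SE was taken from the fold change and its F statistic. The fit was also run on simulated data with known changes in a small part of the genes and no GC trend. Such data cannot test the scaling of the untreated SKOV3 libraries. CPM are TMM-scaled. The members and lists were chosen with earlier results of these data known. No p is given for members in the comparison of PAE in SKOV3/DDP, nor for CYP24A1 in comparisons that use SKOV3/DDP libraries. Named genes are all members, up to 4 called genes per list and comparison by size of change, and the 5 genes most like CYP24A1, and 1 list gene is not reported here by name. Alternatives were DESeq2 1.42.0, library size scaling, no filter, a fit of 6 libraries, replicate number as a block, an offset for each library's trend on GC content (longest GENCODE transcript, 88.1% of genes) and gene length, a threshold of 0.01 and leaving out each library. The correlation of same-numbered deviations was -0.246 to 0.18 and exceeded 0.1 in 4 of 18 pairs, so the main fit did not pair libraries by replicate number. Whether same-numbered cultures were handled together was not tested by this and is not known. No 2 libraries agreed within sampling noise.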

Additional observations from a re-analysis of the deposited data

Results flagged for a closer look

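CYP24A1 moved in opposite directions with PAE in the 2 lines. The log2 fold change was 4.03 in SKOV3, where every treated library lay above every untreated one, and -4.71 in SKOV3/DDP, where every treated library lay below every untreated one. The difference was not tested, since the gene was chosen for its change in SKOV3/DDP.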

How the results depend on the processing

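With the GC and length trend removed, PAE in SKOV3 called 8527 genes, where 11778 of the same 15090 were called as counted. That setting turned RXRA to 0.037, CYP2R1 to -0.701 and DHCR7 to 0.0841 on the log2 scale for PAE in SKOV3, and AHR to -1.21, CYP2R1 to -0.54 and DHCR7 to 1.10 between the untreated lines. It brought VDR, CYP27B1 and CYP1A1 under the threshold for PAE in SKOV3, as did scaling by library size alone (1.18, 1.11 and 1.34), which also gave CYP24A1 a mean of 0.321 CPM in untreated SKOV3. The sign of CYP27B1 for PAE in SKOV3 changed with DESeq2 (-0.026) and without the first treated library, in a range of -0.0125 to 0.476 when a library was left out. Between the lines with PAE, the range over single libraries left out was -2.56 to 0.0313 for CYP24A1, turning positive without the second treated SKOV3 library, and -0.146 to 0.25 for ARNT, turning negative without the third treated SKOV3/DDP library. Without CYP24A1, 7 of 8 members were called in that comparison as fitted. With CYP24A1 counted in, members called in that comparison numbered 8 of 9 as fitted and 5 at an adjusted p of 0.01. Counts that include CYP24A1 are a description and no test, since its SKOV3/DDP counts chose the list. Leaving out a library gave 5 to 7 members, again with CYP24A1 counted in, the lowest without the first treated SKOV3/DDP library. Of all genes, 8401 to 9023 were then called, against 9346 as fitted. For PAE in SKOV3/DDP, leaving out a library gave 2815 to 4349 genes and 2 to 4 members called. The lowest were without the first untreated library (2815 and 2), with 2837 and 3 without the third. An adjusted p of 0.01 left 2135 genes, 2 members and 6 pathway list genes. The list was chosen on that comparison, so its member counts are a description and no test of the members. Nothing is read from those member counts. With DESeq2 the difference of VDR between the untreated lines had an adjusted p of 0.0617. With replicate number as a block, although it is not known whether the numbers pair the libraries, CYP24A1 changed by 3.76 with PAE in SKOV3 (edgeR adjusted p = 0.00687). In that fit RXRA between the lines with PAE and UGT1A1 for PAE in SKOV3/DDP lost their calls, with no other named gene doing so. The cause of these shifts was not tested. Depth limits AHRR, CYP24A1 in untreated SKOV3 and CYP1B1 in SKOV3/DDP, each resting on few counts.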
